A study of Homo sapiens with 12 samples.

Results

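Cells of HCT116, an established colon cancer line, were compared after 8 h in 100 µM hydrogen peroxide (H2O2) with an antibody named anti-Hsp60N and after the same H2O2 exposure with control IgG. The comparison asks how expression under H2O2 differed when the control IgG was replaced by the antibody. Its members were the 4 libraries of these groups, 2 per group, of 12 libraries in all, and the genes that reached 1 TPM (the length-scaled unit of the table) in at least 2 of the 12. Of 23686 genes in the table, 13956 met that rule, 54 genes of small RNAs (SNORA, SNORD, SCARNA and MIR symbols) were left out, and 13902 were tested. The other libraries were 2 of HCT116 under IgG with no H2O2, and 6 of MDA-MB-231, a breast cancer line, under the same 3 treatments. No genetic change is named for either line, and both were grown in serum-containing medium, HCT116 in McCoy 5a and MDA-MB-231 in DMEM, so that line and medium cannot be told apart. No group had the antibody without H2O2, so a difference in the response to H2O2 and an effect of the antibody that needs no H2O2 cannot be told apart. The meaning of the N in its name, its dose and its source are absent from the labels. Whether the 2 libraries of a group are separate cultures is likewise not stated, and the p-values then measure only how far these samples spread, possibly for technical reasons.

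Hsp60, encoded by HSPD1, is the chaperonin of the mitochondrial matrix, where it folds imported proteins together with its co-chaperonin Hsp10, encoded by HSPE1. A share of Hsp60 is known outside mitochondria, at the cell surface and secreted, where receptors such as TLR4 can bind it. H2O2 oxidises proteins and DNA, and cells are known to answer it through ATF4 (amino acid and translation stress), NRF2 (antioxidant enzymes), p53 (DNA damage), NF-kappaB and the AP-1 family, each with a textbook set of target genes.

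The labelled cell type was checked on marker genes. Of 17 colon epithelial markers, 12 or 13 had a mean of at least 1 TPM in each HCT116 group, with EPCAM at 335 to 369 TPM in the 4 libraries compared and CDX1 listed at 0. Of a wider list of 25 colon epithelial genes, 15 met the rule on low values and 0 of these passed for the antibody. The summed level of the 17 was 6508 and 6367 TPM under IgG with H2O2 and 6319 and 6440 TPM under anti-Hsp60N with H2O2. The 9 fibroblast or endothelial markers summed to 6.06 to 8.43 TPM over the 6 HCT116 libraries, with COL1A1 the only member at 1 TPM or more. The 6 immune markers summed to 20.5 to 25.8 TPM, nearly all of it CD68, with CD3D listed at 0 throughout. Between 12434 and 12653 genes reached 1 TPM in an HCT116 library. TPM are rescaled to the same total in every library, so the sequencing depth is unknown.

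With anti-Hsp60N, 1 gene of 13902 passed the test, APOC1, which was lower. This is 0.00719% of the genes tested (limma, adjusted p under 0.05), and 0 genes passed in the higher direction. At an unadjusted p under 0.05, 391 genes (2.81%) were higher and 325 (2.34%) lower, together 716 genes or 5.15%. That count was 415 without replicate 1 of IgG with H2O2 and 1033 without replicate 2 of it. In the same fit, 4637 genes (33.4%) passed for IgG with H2O2 against IgG, 2180 higher and 2457 lower, and 4855 (34.9%) passed for anti-Hsp60N with H2O2 against IgG. These comparisons share libraries with the antibody comparison, and their values are set beside it as a scale. The median antibody difference over all genes was 0.01 on the log2(TPM + 1) scale, on which all differences are given, with 7449 genes above 0 and 6143 below.

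**Figure D1:**
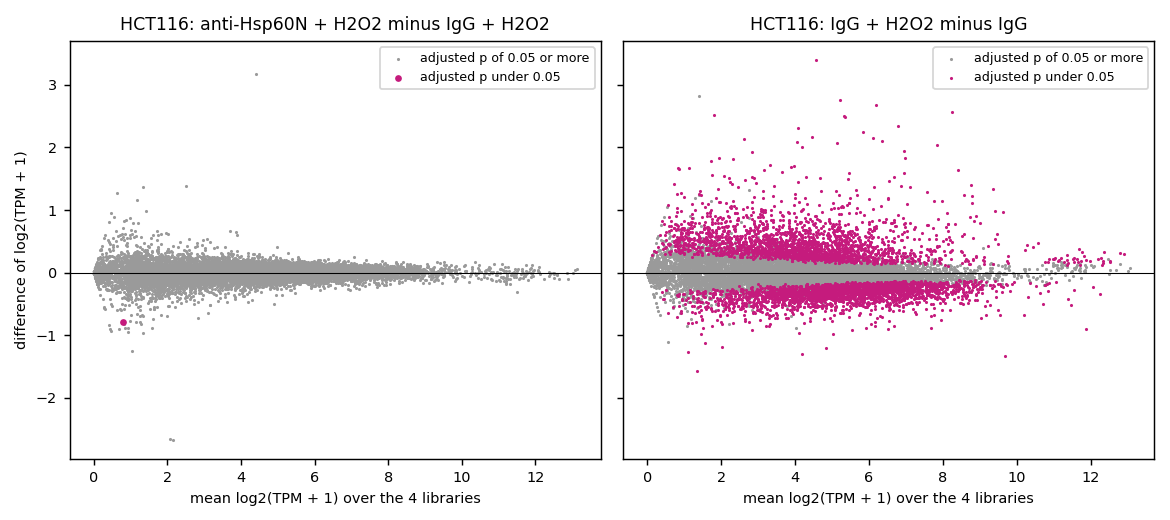
Difference of log2(TPM + 1) for each of 13902 genes (vertical axis) against its mean log2(TPM + 1) over the 4 libraries of the comparison (horizontal axis), with anti-Hsp60N and H2O2 minus IgG and H2O2 on the left and IgG and H2O2 minus IgG on the right. On the left 1 gene, APOC1, is marked as past an adjusted p of 0.05, and on the right 4637 are.

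The libraries of the 2 groups were about as alike across the groups as within them. Across genes, the 2 libraries of IgG with H2O2 correlated at 0.997 and the 2 of anti-Hsp60N with H2O2 at 0.998, and each of the 4 pairs formed between the groups at 0.997. The 8 pairs between IgG and the H2O2 groups lay between 0.987 and 0.990. Genes are not independent replicates, so these are descriptions with no test.

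A p that misses the threshold does not show that a gene was the same in both groups, so the 95% interval of each difference was read against fixed folds. For 13228 genes (95.2%) the whole interval lay within 1.5-fold in either direction, which is 0.58 on the log2 scale, and for 13781 genes (99.1%) within 2-fold. The precision depended on the level. The median half-width of the interval was 0.27 for genes of 1 to 5 TPM, 0.15 for 20 to 100 TPM and 0.12 above 100 TPM, and the share of genes within 1.5-fold was 84.9%, 99.8% and 99.9% in these classes. Below about 5 TPM the added 1 also shrinks a difference, so a bound on this scale allows a larger fold in TPM there.

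APOC1 encodes apolipoprotein C-I, a small protein of plasma lipoproteins. It had 1.41 and 1.17 TPM under IgG with H2O2 and 0.3 and 0.35 TPM with anti-Hsp60N, against 0.35 and 0.38 TPM under IgG alone. The antibody libraries were thus at the level of the libraries without H2O2, and the 2 libraries of IgG with H2O2 stood above the other 4. The difference was -0.79 (SE 0.09, 95% interval -0.98 to -0.59, limma adjusted p = 0.026), and that of H2O2 against IgG was 0.74 (limma adjusted p = 0.000115). In bulk RNA, fewer cells with the transcript and less transcript per cell cannot be told apart. The call did not hold under every setting. It was lost with a pseudocount of 5 (difference -0.24, limma adjusted p = 0.615), in a fit on the 6 HCT116 libraries alone (limma adjusted p = 0.816), and on leaving out any library except replicate 2 of IgG with H2O2 (limma adjusted p between 0.056 and 0.266). Over all alternatives its limma adjusted p ran from 0.00141 to 0.816. APOE, the neighbour of APOC1 in the genome and also an apolipoprotein, had 1.97 and 1.41 TPM under IgG with H2O2 and 1.17 and 1.85 TPM with the antibody, which overlap.

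The gene of the chaperonin that the antibody is named for was abundant in all libraries. HSPD1 had 1625 and 1749 TPM under IgG with H2O2 and 1780 and 1775 TPM with anti-Hsp60N, against 1965 and 1861 TPM under IgG. HSPD1 has processed pseudogenes with which reads can be shared. The antibody libraries lay just above both IgG with H2O2 libraries and below both IgG libraries. The antibody difference of 0.08 did not pass (95% interval -0.03 to 0.18, limma adjusted p = 0.919), while HSPD1 was lower with H2O2 than under IgG (difference -0.18, limma adjusted p = 0.0138). HSPE1, the co-chaperonin, had 606 and 600 TPM under IgG with H2O2 and 606 and 594 TPM with the antibody, a difference of -0.01 (95% interval -0.17 to 0.16). Its 4 values overlapped and all lay below the 869 and 722 TPM of IgG.

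The wider set of mitochondrial chaperones, proteases and import genes behaved alike. Of 26 members tested, 0 passed for the antibody and 0 had an unadjusted p under 0.05, and for all 26 the interval lay within 1.5-fold. Mortalin, the matrix Hsp70 that pulls in imported proteins (HSPA9), had 557 and 604 TPM under IgG with H2O2 and 604 and 613 TPM with the antibody (difference 0.07, interval -0.04 to 0.18). The matrix proteases were at similar values, LONP1 with 188 and 177 TPM against 173 and 178 TPM, and CLPP with 105 and 97.9 TPM against 93.7 and 99.7 TPM. The matrix Hsp90 TRAP1 differed by -0.01. Across the list, the antibody difference ran from -0.15 (TIMM17B, an import channel subunit) to 0.10 (GRPEL1, the nucleotide exchange factor of mortalin), around a median of 0.02 against 0.01 for all genes. This median was 0.001 without replicate 1 of IgG with H2O2 and 0.002 without replicate 2 of it.

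Genes whose products could meet an antibody or extracellular Hsp60 were mostly low in HCT116. TLR4 was listed at 0.02 and 0 TPM under IgG with H2O2 and at 0 in both antibody libraries, and TLR2 was at 0 in all 6. The signalling adaptors further down were present. MYD88 had 16.6 and 15.9 TPM under IgG with H2O2 and 16.7 and 15.8 TPM with the antibody, and IRAK1 had 96.6 and 95.8 TPM against 89.7 and 94.9 TPM. LRP1, a scavenger receptor, was at 3.11 and 3.17 TPM against 3.09 and 3.15 TPM. Of the 11 tested receptors, adaptors and Fc receptors, 0 passed, and all 11 intervals lay within 1.5-fold. For genes near 0, such as TLR4, the added 1 narrows the interval, so it does not bound their fold in TPM. The neonatal Fc receptor FCGRT was under 1 TPM in all 6 libraries, and the cytosolic antibody receptor TRIM21 had 16.6 and 17.0 TPM against 18.5 and 16.8 TPM.

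The ATF4 targets were the list with the largest H2O2 median, and their level was close in the 2 H2O2 groups. Of 27 members tested, 24 rose with H2O2 against IgG and 24 rose with anti-Hsp60N and H2O2 against IgG, with medians of 1.05 and 1.04. Over all genes, 15.7% rose and 17.7% fell with H2O2 against IgG. With anti-Hsp60N and H2O2 against IgG, 17% of all genes rose and 17.9% fell. Between the 2 groups 0 members passed, the median was 0.03, and 26 of 27 intervals lay within 1.5-fold. Leaving out replicate 1 of IgG with H2O2 gave a median of 0.01, and leaving out replicate 1 of the antibody group 0.06. CHAC1, which breaks down glutathione, went from 6.57 and 5.92 TPM under IgG to 74.3 and 76.5 TPM with H2O2, and stood at 66.2 and 72.9 TPM with the antibody. Both antibody libraries were below both IgG with H2O2 libraries, by -0.12 on average (interval -0.33 to 0.09), next to an H2O2 difference of 3.40. DDIT3, which encodes the death-promoting factor CHOP, had 185 and 182 TPM with H2O2 and 163 and 187 TPM with the antibody, which overlap. TRIB3, a pseudokinase that feeds back on ATF4, had 170 and 169 TPM against 155 and 173 TPM.

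Other members of the ATF4 group were also close. ATF3, a stress-induced repressor, had 44.5 and 47.1 TPM under IgG with H2O2 and 54.2 and 50.7 TPM with the antibody, without overlap, and its difference of 0.19 (interval -0.03 to 0.41) was the highest of the list. SLC7A11, the cystine importer that feeds glutathione synthesis, had 67.6 and 73.1 TPM against 74.2 and 81.5 TPM (difference 0.14, interval -0.04 to 0.33). The asparagine synthetase ASNS was nearly the same in all 4 libraries, at 368 and 376 TPM against 369 and 377 TPM. ATF4 itself had 925 and 979 TPM against 970 and 1010 TPM. Amino acid tRNA synthetases, which ATF4 also drives, had 9 of 18 members above IgG with H2O2 without overlap and 0 below, with a median of 0.04 (0.06 without replicate 2 of IgG with H2O2) and 0 past the test. Over all genes, 21.9% were higher and 15.6% lower without overlap.

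**Figure D2:**
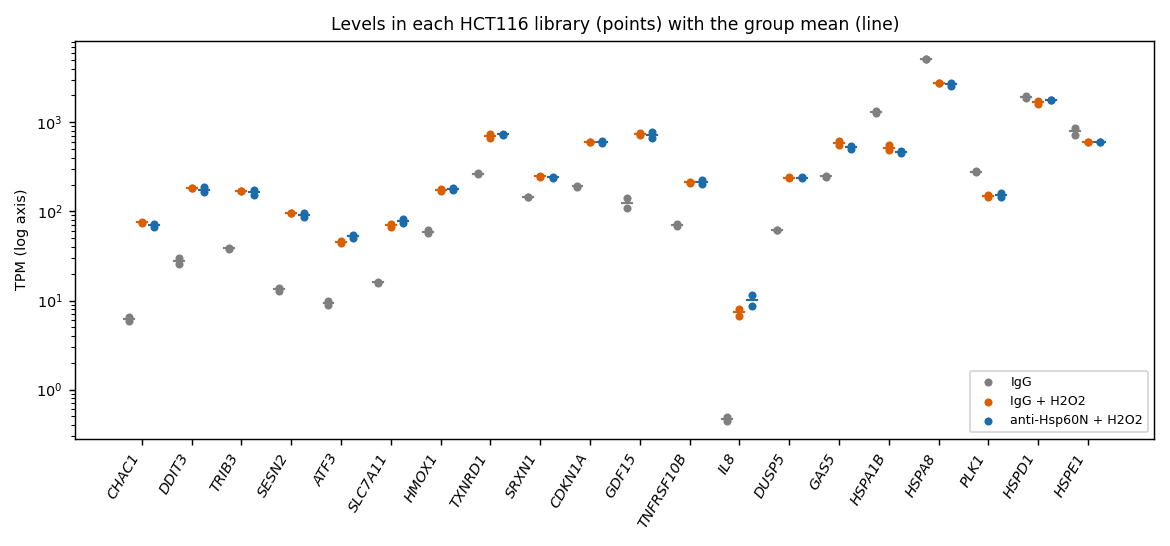
TPM on a log axis for 20 genes in the 6 HCT116 libraries, with points for libraries and a line for the mean of each group. For CHAC1, DDIT3, CDKN1A and the other genes that rose with H2O2, the anti-Hsp60N points lie beside the IgG with H2O2 points and away from the IgG points.

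The p53 targets gave the same picture. Of 31 members, 27 rose with H2O2 against IgG and 27 with anti-Hsp60N and H2O2 against IgG, with medians of 0.65 and 0.72. The shares of all genes that rose were 15.7% and 17%. Between the H2O2 groups 0 passed, the median was 0.02 and 30 of 31 intervals lay within 1.5-fold. That median was 0.08 without replicate 1 of the antibody group and -0.003 without replicate 2 of it, so no direction is given. CDKN1A, the p21 inhibitor of cyclin-dependent kinases, had 595 and 601 TPM under IgG with H2O2 and 591 and 615 TPM with the antibody, against 186 and 195 TPM under IgG. Its antibody difference was 0.01, with an interval of -0.09 to 0.11 beside an H2O2 difference of 1.65. GDF15, a secreted stress cytokine, had 759 and 718 TPM against 666 and 777 TPM. TNFRSF10B, the death receptor DR5, had 210 and 216 TPM against 205 and 223 TPM, and BBC3, the BH3-only protein PUMA, had 43.5 and 41.3 TPM against 38.9 and 47.5 TPM. In these 3 genes the groups overlapped. MDM2, the ubiquitin ligase that limits p53, had 108 and 122 TPM against 121 and 128 TPM (difference 0.12, interval -0.03 to 0.26).

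NRF2 targets and antioxidant enzymes were likewise close. Of 30 NRF2 targets, 17 rose and 1 fell with H2O2 against IgG, where 15.7% of all genes rose and 17.7% fell. For the antibody 0 passed, and 29 intervals lay within 1.5-fold. The median antibody difference was -0.01, and its sign turned in 5 of 23 alternative settings, among them quantile normalization, a pseudocount of 0.1 and the omission of replicate 2 of IgG with H2O2 or of the antibody group, so no direction is given. HMOX1, which degrades heme, had 176 and 171 TPM under IgG with H2O2 and 176 and 181 TPM with the antibody, against 57.7 and 61.1 TPM under IgG. TXNRD1, thioredoxin reductase, had 667 and 732 TPM against 721 and 741 TPM, and SRXN1, which repairs oxidised peroxiredoxins, had 243 and 251 TPM against 239 and 246 TPM. NQO1, a quinone reductase, differed by 0.03 (interval -0.06 to 0.11). Of 24 antioxidant enzymes, 0 passed and all 24 intervals lay within 1.5-fold. Catalase, the enzyme that splits H2O2 (CAT), had 34.0 and 38.8 TPM against 40.8 and 38.2 TPM, and the peroxiredoxin PRDX1 had 1943 and 2008 TPM against 2066 and 1925 TPM.

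The chemokine IL8 had one of the larger differences among genes of the stress lists. It had 6.78 and 8.1 TPM under IgG with H2O2 and 8.69 and 11.5 TPM with anti-Hsp60N, against 0.45 and 0.49 TPM under IgG. The groups did not overlap, and the difference was 0.39 (interval 0.15 to 0.63, unadjusted p = 0.00391), but it did not pass over all genes (limma adjusted p = 0.899). The other chemokines overlapped, with CXCL1 at 2.49 and 1.32 TPM against 1.78 and 1.77 TPM and CXCL2 at 2.22 and 1.7 TPM against 1.39 and 2 TPM. Of 29 NF-kappaB targets 0 passed, the median was 0.04, and 25 intervals lay within 1.5-fold. The median was 0 without replicate 2 of the antibody group and 0.02 without replicate 1 of IgG with H2O2. NFKBIA, the inhibitor and feedback target of NF-kappaB, had 48.4 and 52.3 TPM against 50.1 and 50.5 TPM. RELB, an NF-kappaB subunit that rose by 1.45 with H2O2, had 25.6 and 27.9 TPM against 22.3 and 26.9 TPM.

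Immediate early genes, the fast-acting transcription factors and phosphatases downstream of growth factor and stress kinases, were a list with many members on 1 side. Of 30 members, 17 were higher with anti-Hsp60N without overlap and 0 lower, where the background is 21.9% and 15.6%. The median was 0.08, 5 members had an unadjusted p under 0.05, and 0 passed the test. All 30 intervals lay within 1.5-fold. FOSL1, an AP-1 subunit, had 306 and 315 TPM under IgG with H2O2 and 338 and 343 TPM with the antibody (difference 0.13, interval 0.01 to 0.25). FOSB, another AP-1 subunit, had 3.97 and 3.7 TPM against 4.92 and 4.61 TPM, and the phosphatase DUSP1 had 14.9 and 15.4 TPM against 18.2 and 16.9 TPM. The groups were separate in these 3 genes, by differences of 0.13 to 0.25. DUSP5, a phosphatase of ERK that rose by 1.94 with H2O2, did not share this, at 235 and 243 TPM against 243 and 237 TPM, nor did FOS, at 7.81 and 5.53 TPM against 5.98 and 6.18 TPM. Ligands and receptors of the EGFR family had 15 of 15 members above 0, 8 of them without overlap, with a median of 0.06 and 0 past the test. Of all 13902 genes, 7449 lay above 0, and the EGFR median was 0.09 without replicate 2 of IgG with H2O2 and 0.10 without replicate 2 of the antibody group. EREG, an EGFR ligand, had 598 and 610 TPM against 660 and 703 TPM.

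Heat shock genes were mostly lower with H2O2 than under IgG. Of 26 members, 19 fell with H2O2 against IgG and 22 fell with anti-Hsp60N and H2O2 against IgG. The shares of all genes that fell were 17.7% and 17.9%. Between the H2O2 groups 0 passed, the median was 0.02 and all 26 intervals lay within 1.5-fold. It was -0.02 without replicate 1 of the antibody group and 0.04 without replicate 2 of it, so this list too is given no direction. HSPA1B, an inducible Hsp70, had 551 and 490 TPM under IgG with H2O2 and 475 and 449 TPM with the antibody, against 1277 and 1326 TPM under IgG. Both antibody libraries were the lowest of the 6, at a difference of -0.17 (interval -0.33 to -0.01, limma adjusted p = 0.919). Its near-identical copy HSPA1A, with which it can exchange reads, had 18.8 and 17.0 TPM against 15.5 and 17.0 TPM. The constitutive Hsp70 HSPA8 had 2760 and 2732 TPM against 2792 and 2558 TPM, and the Hsp90 gene HSP90AA1 had 2272 and 2460 TPM against 2571 and 2439 TPM. Both overlapped.

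**Figure D3:**
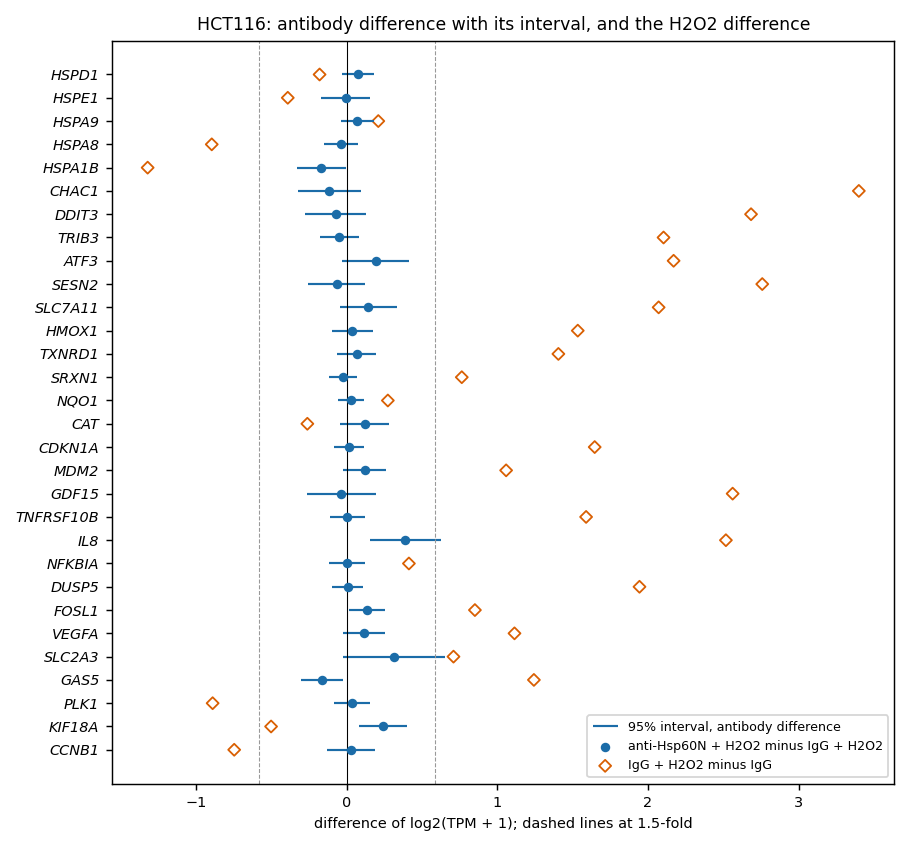
Antibody difference of log2(TPM + 1) with its 95% interval (points and lines) and H2O2 difference (open diamonds) for 30 genes in HCT116, with dashed lines at 1.5-fold. The antibody intervals lie within the dashed lines except those of IL8 and SLC2A3, while the H2O2 differences run from -1.32 to 3.40.

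Some lists leaned to 1 side by small amounts, with 0 members past the test in each. They are to be read beside all 13902 genes, of which 7449 lay above 0 and 6143 below, and 21.9% were higher and 15.6% lower without overlap. Hypoxia and glycolysis genes had the highest median, 0.13, with 27 of 30 members above 0, 11 higher and 0 lower without overlap. LDHA, lactate dehydrogenase, had 1196 and 1256 TPM under IgG with H2O2 and 1471 and 1295 TPM with anti-Hsp60N, and NDRG1, a hypoxia target, had 318 and 321 TPM against 401 and 324 TPM. In both, replicate 1 of the antibody group was the highest of the 4 libraries and replicate 2 lay close to those of IgG with H2O2. The glucose transporter SLC2A3 had 9.69 and 10.6 TPM against 15.5 and 10.5 TPM. The median of the list was 0.03 without replicate 1 of the antibody group and 0.22 without replicate 2 of it, so its size rested on the first of these libraries.

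Mitotic genes fell with H2O2 against IgG in 35 of 36 members, beside 17.7% of all genes. For the antibody, 35 of 36 lay above 0. Of these, 13 were higher and 0 lower without overlap, against 21.9% and 15.6% of all genes, of which 7449 of 13902 lay above 0. The median was 0.06 and all 36 intervals lay within 1.5-fold. KIF18A, a motor of chromosome alignment, had 23.0 and 25.9 TPM under IgG with H2O2 and 29.9 and 28.0 TPM with the antibody, against 34.9 and 35.01 TPM under IgG (antibody difference 0.24, interval 0.08 to 0.40, limma adjusted p = 0.919). The better known mitotic kinases overlapped, with PLK1 at 155 and 146 TPM against 161 and 146 TPM, and AURKA at 75.9 and 74.2 TPM against 81.6 and 74.0 TPM. The median of the list was between 0.02 (without replicate 1 of the antibody group) and 0.11 (without replicate 2) when a library was left out. In MDA-MB-231 the median of the same list was -0.07, beside -0.025 for all genes there. DNA replication (-0.09) and DNA repair (-0.11) had lower medians in that line. Of the lists above that leaned higher in HCT116, immediate early genes had a median of 0.12 in MDA-MB-231. Hypoxia and glycolysis genes had -0.03 there, and EGFR ligands and receptors -0.10. List medians were not tested between lines.

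Non-coding host RNAs, whose introns carry small nucleolar RNAs, and related long non-coding RNAs had a median of -0.11, with 13 of 16 members below 0, 7 lower and 0 higher without overlap. Of all 13902 genes, 6143 lay below 0, and 15.6% were lower and 21.9% higher without overlap. With H2O2 against IgG, 14 of the 16 rose, beside 15.7% of all genes. GAS5 had 614 and 558 TPM under IgG with H2O2 and 505 and 541 TPM with the antibody, against 244 and 250 TPM under IgG. The antibody libraries lay below both IgG with H2O2 libraries, by -0.16 (interval -0.30 to -0.02, limma adjusted p = 0.919), and above both IgG libraries. ZFAS1 overlapped, at 496 and 448 TPM against 462 and 479 TPM, as did NEAT1, at 257 and 218 TPM against 209 and 229 TPM. Leaving out a library moved the median between -0.15 (without replicate 2 of IgG with H2O2) and -0.04 (without replicate 1 of the antibody group).

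Cytosolic ribosomal protein genes had 25 of 59 members lower and 8 higher without overlap, with a median of -0.03 (-0.05 without replicate 2 of the antibody group) and all 59 intervals within 1.5-fold. The shares over all genes were 15.6% lower and 21.9% higher. RPS10 had 2496 and 2444 TPM against 2189 and 2240 TPM, and RPL3 had 3896 and 3929 TPM against 4058 and 3873 TPM. RPS29, outside the list, had 3310 and 3186 TPM against 2598 and 2649 TPM (difference -0.31, limma adjusted p = 0.666). Ribosomal protein genes have many near-identical pseudogenes, so reads may be split among copies. Nuclear genes of oxidative phosphorylation had 31 of 44 members below 0, 11 lower and 3 higher without overlap, where 6143 of all 13902 genes lay below 0. Their median was -0.03, and -0.06 without replicate 2 of IgG with H2O2, -0.02 without replicate 1 of it and -0.02 without replicate 2 of the antibody group. COX8A, a subunit of complex IV, had 748 and 740 TPM against 654 and 669 TPM. Short and long genes differed slightly as whole classes. The median antibody difference went from -0.01 in the fifth of genes with the shortest transcripts to 0.03 in the fifth with the longest, and the difference between the 2 libraries of IgG with H2O2 went from -0.02 to 0.04 over the same length classes. The part of transcript length in the small list medians was not tested.

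Replication-dependent histone genes were measured less closely, and only 6 of 16 intervals lay within 1.5-fold, with differences from -0.58 (HIST2H4A) to 0.67 (HIST4H4). Over all lists, 873 different genes were tested, 0 passed, 19 were higher and 15 lower at an unadjusted p under 0.05, and 848 intervals lay within 1.5-fold. Without overlap, 189 were higher and 125 lower, against 21.9% and 15.6% of all genes. Cholesterol synthesis (29 tested), DNA replication (32), DNA repair (34), apoptosis regulators (32), interferon response (35), autophagy and lysosome (26) and mitochondrial ribosomal proteins (36) had medians between -0.01 and 0.03, which ran from -0.04 to 0.04 when a library was left out. Among their members, MVD, an enzyme of the mevalonate pathway, had 66.2 and 62.4 TPM against 51.3 and 57.1 TPM (difference -0.24, interval -0.38 to -0.11, limma adjusted p = 0.715). BST2, the interferon-induced tetherin, had 1.04 and 1.29 TPM against 2.54 and 1.54 TPM, with an interval of 0.19 to 0.76.

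**Figure D4:**
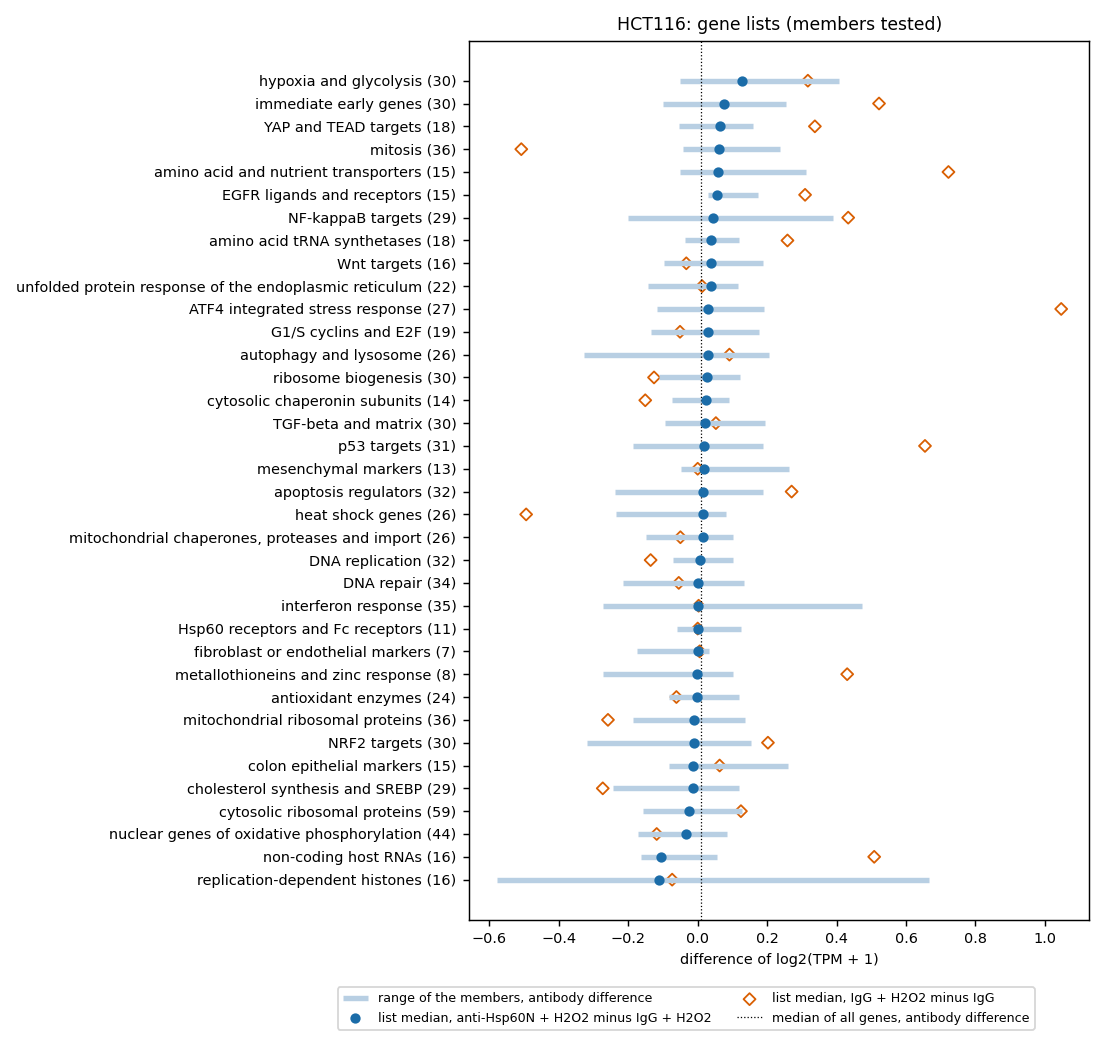
Median antibody difference (filled points), range of the members (bars) and median H2O2 difference (open diamonds) for the 36 gene lists with at least 5 members tested in HCT116, with the number tested in parentheses. The filled points lie between -0.11 and 0.13, and the diamonds between -0.51 and 1.05.

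Among genes with a mean of at least 5 TPM in a group, those of smallest p did not pass and are given as the most separated values of the comparison. Higher with anti-Hsp60N was CAMK2N1, an inhibitor of the kinase CaMKII, at 11.9 and 12.4 TPM under IgG with H2O2 and 16.3 and 15.2 TPM with the antibody (difference 0.35, interval 0.20 to 0.50, limma adjusted p = 0.504). LOXL2, a secreted enzyme that crosslinks collagen, had 18.9 and 20.1 TPM against 24.5 and 22.6 TPM (difference 0.26). In both genes the H2O2 group lay above IgG and the antibody group above H2O2. RNASE4, a secreted ribonuclease, had 4.13 and 3.82 TPM against 6.04 and 6.34 TPM (difference 0.53, interval 0.30 to 0.76). SYTL2, a vesicle transport protein, had 4.38 and 4.41 TPM against 5.79 and 5.52 TPM, and CMAS, which activates sialic acid, had 43.9 and 43.7 TPM against 49.7 and 49.0 TPM. Both fell with H2O2 against IgG, and their antibody libraries lay between the 2 control groups.

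Lower with anti-Hsp60N was NUDT6, at 7.02 and 7.73 TPM under IgG with H2O2 and 4.95 and 5.19 TPM with the antibody (difference -0.46, interval -0.63 to -0.29, limma adjusted p = 0.229). It had 7.56 and 7.44 TPM under IgG, so the antibody group stood below both other groups. NUDT6 is antisense to FGF2, which had 4.71 and 4.09 TPM against 5.26 and 5.33 TPM, and whether strand was kept in the libraries is not stated. OGFOD2, a putative oxygenase, had 15.3 and 14.7 TPM against 11.3 and 11.5 TPM (difference -0.36, interval -0.50 to -0.23, limma adjusted p = 0.229), with 14.5 and 15.2 TPM under IgG. MED11, a subunit of the Mediator complex, had 21.1 and 19.9 TPM against 15.4 and 13.7 TPM (difference -0.47). PSMB10, a catalytic subunit of the immunoproteasome, had 36.4 and 31.7 TPM against 25.8 and 26.9 TPM (difference -0.35, interval -0.50 to -0.20, limma adjusted p = 0.496). It had 43.5 and 43.3 TPM under IgG and passed as lower for both H2O2 groups against IgG. The partner subunit PSMB9 did not share the separation, at 5.45 and 4.63 TPM against 6.19 and 4.72 TPM.

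**Figure D5:**
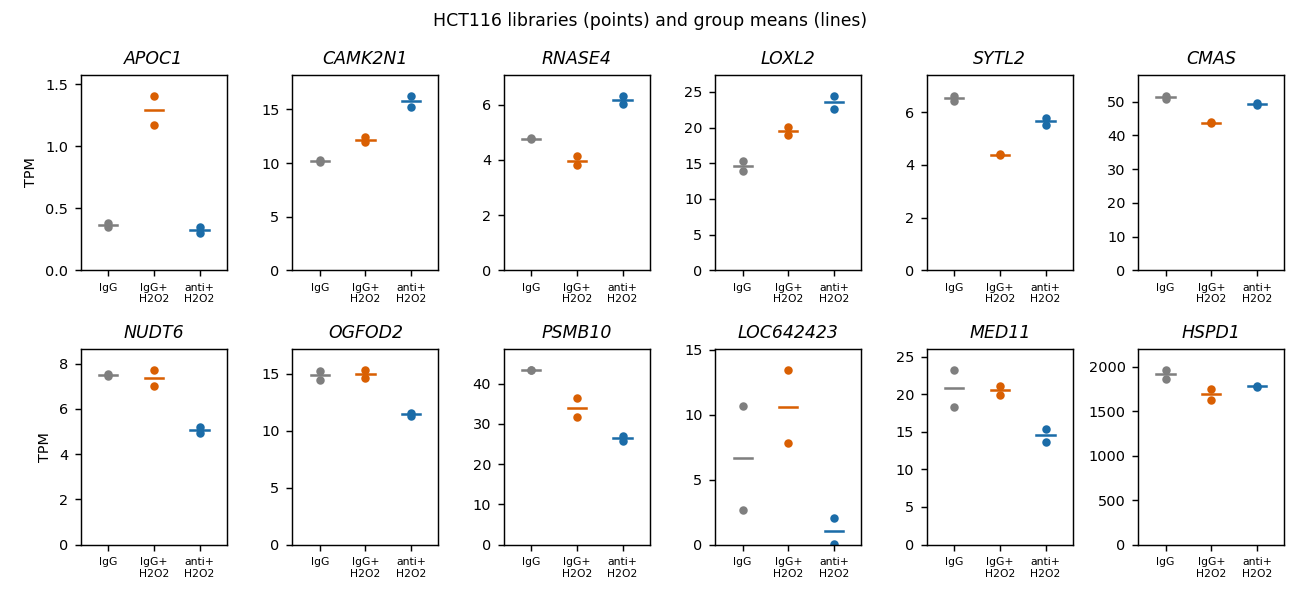
TPM of 12 genes in the 6 HCT116 libraries, with points for libraries and lines for group means, each panel on its own linear axis from 0. APOC1 is the gene that passed the test, HSPD1 encodes Hsp60, and the other 10 are the genes of smallest p with a mean of at least 5 TPM in a group, none of which passed.

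At low levels, MRVI1-AS1, PTH2 and HOXD4 were the next genes by p. MRVI1-AS1, an antisense RNA, had 0.62 and 1.23 TPM under IgG with H2O2 and 2.67 and 2.89 TPM with the antibody, against 2.33 and 2.23 TPM under IgG (difference 0.99, limma adjusted p = 0.068). PTH2, a neuropeptide gene, had 1.77 and 1.18 TPM against 0.3 and 0.36 TPM (difference -0.89, limma adjusted p = 0.068). HOXD4, a homeobox gene, had 0.62 and 0.58 TPM against 1.2 and 1.66 TPM (difference 0.60, limma adjusted p = 0.229). MRVI1-AS1 and PTH2 were singled out after their values were seen, and HOXD4 was also taken by the rule on differences between lines. In all 3 the groups did not overlap.

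The largest differences belonged to genes that varied within a group. An absolute difference over 1 was found for 8 genes, of which 0 passed and 7 had at least 1 of the 4 libraries listed at 0. LOC642423 had 13.4 and 7.8 TPM under IgG with H2O2 and 2.04 and 0.04 TPM with the antibody, but also 2.67 and 10.6 TPM under IgG (difference -2.66, interval -3.91 to -1.42, limma adjusted p = 0.658). RPL21, a ribosomal protein gene that every cell uses, was listed at 48.6 and 0 TPM against 41.5 and 94.9 TPM, and at 0 in both IgG libraries. A 0 in this table can therefore be a failed estimate. GSTT2B was listed at 11.4 and 0 TPM against 8.33 and 8.02 TPM, with its copy GSTT2 at 19.7 and 31.9 TPM against 27.2 and 25.3 TPM.

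The antibody comparison of MDA-MB-231, which shares no library with that of HCT116, had 2 genes past the test (0.0144%), GATSL1 and HERC2P4, both listed at 0 in all 6 HCT116 libraries, and 1835 genes (13.2%) at an unadjusted p under 0.05. Within MDA-MB-231, that last count was 937 without replicate 2 of the antibody group, 1001 without replicate 1 of IgG with H2O2 and 1182 without replicate 2 of it. HERC2P4 (limma adjusted p = 0.0313) lost its call with a pseudocount of 0.1 (limma adjusted p = 0.159) and on leaving out any of the 12 libraries except replicate 2 of the MDA-MB-231 antibody group (limma adjusted p between 0.0696 and 0.179), and GATSL1 kept its call in each of these. APOC1 was far more abundant there, with 17.6 and 19.1 TPM under IgG with H2O2 and 17.3 and 17.0 TPM with the antibody. Its antibody difference in HCT116 minus that in MDA-MB-231 was -0.69 (SE 0.13, limma adjusted p = 0.222) and did not pass. With a pseudocount of 0.1 it did pass, so a difference between lines was not established. The difference between lines passed for 2 genes (0.0144%), GATSL1 and LOC441461, with 1741 genes (12.5%) at an unadjusted p under 0.05. The latter count was 942 without replicate 1 of IgG with H2O2 and 1159 without replicate 1 of the antibody group in HCT116, and 1070 without replicate 2 of the antibody group and 1135 without replicate 1 of IgG with H2O2 in MDA-MB-231. GATSL1 met the filter on level only through the MDA-MB-231 antibody libraries, and LOC441461 only through those of HCT116. The filter thus used the same values as these calls, which the p-values do not take into account. LOC441461 had 0.53 and 0.29 TPM under IgG with H2O2 and 1.13 and 1.06 TPM with the antibody in HCT116, and went from 0.95 and 0.77 TPM to 0 in both libraries in MDA-MB-231. Its difference in HCT116 alone, 0.58, did not pass (limma adjusted p = 0.666). Its call between lines was lost on leaving out any of 8 libraries.

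Of the genes with the most different antibody differences and a mean of at least 5 TPM, 0 passed. C4orf48 had 38.3 and 30.6 TPM against 22.5 and 25.6 TPM in HCT116, with a difference of -0.49 there and 0.77 in MDA-MB-231 (difference between lines -1.26, limma adjusted p = 0.221). TMEM160 had 27.0 and 17.9 TPM against 13.2 and 19.3 TPM, with -0.44 in HCT116 and 0.60 in MDA-MB-231. Both are from the lowest side. On the highest side, HOXD4 differed by 0.60 in HCT116 and -0.43 in MDA-MB-231 (difference between lines 1.03, limma adjusted p = 0.0687). FAM133DP differed by 0.66 and -0.42 (difference between lines 1.08, limma adjusted p = 0.334). HSPD1 differed by 0.08 in HCT116 and -0.07 in MDA-MB-231 (difference between lines 0.14, SE 0.07, limma adjusted p = 0.406). IL8 differed by 0.39 and -0.09 (difference between lines 0.48, SE 0.15, limma adjusted p = 0.338). None of these shows that the lines act alike or differ.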

How the data were processed

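RNA sequencing values of 12 libraries were read from 1 deposited table, in which the authors gave TPM per gene symbol. Genome build hg19 and the tools bcl2fastq 2.20, STAR and RSEM are named, without their role, in the submitters' processing notes. The annotation, strand setting and other versions were not given in the sources used here. TPM keep no depth, so no counting error could be given. Libraries were matched to columns by the description in the labels, and 0 columns were left unmatched. Mitochondrially encoded genes were not analysed here.

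From the deposited TPM, log2(TPM + 1) was computed, and genes with at least 1 TPM in at least 2 libraries were kept, without 54 small RNA genes. Differences were tested two-sided in limma 3.58.1 under R 4.3.3, fitting the means of the 6 groups to the 12 libraries with a trend of variance on level. Residual degrees of freedom were 6 and prior ones 5.43, and p-values were adjusted by Benjamini-Hochberg across 13902 genes. A gene passed at an adjusted p under 0.05. The 95% intervals come from the same fit and are not adjusted for the number of genes. The fit was tested on simulated data with known changes of 1.5-fold or more, in genes with a mean of at least 5 TPM. Smaller changes and lower levels, such as that of APOC1, were not covered. Plots used Python 3.11.15 and matplotlib 3.10.9.

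The members and gene lists were chosen with earlier results of these data known. Of 981 list entries, 16 were not matched and 4 matched an older symbol (such as IL8). Transcript lengths were taken by symbol from GENCODE transcripts of another build, and 92.0% of genes had one. The rule for named genes took those past the threshold with a mean of at least 5 TPM in a group and libraries that do not overlap. Up to 5 genes of smallest p per direction were added where too few passed. It also took HSPD1, HSPE1 and the 5 highest and 5 lowest differences between lines. APOC1, whose mean was under that level, and all further genes in the text were picked with their values in view. Alternatives covered the pseudocount, filters, small RNA genes, scaling, the libraries fitted, the variance trend, a replicate block and each library left out.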

Additional observations from a re-analysis of the deposited data

Results flagged for a closer look

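The antibody difference of GATSL1 in HCT116 minus that in MDA-MB-231 was -1.63, and it passed the test of the difference between the lines (SE 0.16, limma adjusted p = 0.00469). GATSL1 was listed at 0 in all 6 HCT116 libraries, and in MDA-MB-231 it was listed at 0 under IgG and under IgG with H2O2 and at 1.83 and 2.4 TPM with anti-Hsp60N. The difference therefore comes from MDA-MB-231 libraries alone, and a 0 in this table can be a failed estimate. GATSL1 was also tested only because these antibody libraries reached 1 TPM. The p-value does not take that selection into account.

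The antibody difference of LOC441461 in HCT116 minus that in MDA-MB-231 was 1.47, and it passed the same test (SE 0.18, limma adjusted p = 0.0272). In HCT116 it had 0.53 and 0.29 TPM under IgG with H2O2 and 1.13 and 1.06 TPM with the antibody, and in MDA-MB-231 it had 0.95 and 0.77 TPM and then 0 in both antibody libraries. Only the HCT116 antibody libraries reached 1 TPM, so LOC441461 entered the test through the group in which it was highest. The p-value does not take that selection into account. The call was lost with a pseudocount of 5 (limma adjusted p = 0.0693) and on leaving out any of 8 of the 12 libraries (limma adjusted p between 0.0788 and 0.216). Both genes are left out where a mean of at least 5 TPM over the libraries is asked for. The cause was not tested.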

How the results depend on the processing

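The count of 1 gene for the antibody in HCT116 was 0 with no filter on low values, 0 with the 6 HCT116 libraries alone, 0 with the 4 libraries alone, and 3 with small RNA genes kept (APOC1, SNORA12 and SNORA49). When a library was left out, the count, the genes past the threshold and their direction changed. Without replicate 1 of IgG with H2O2, GSTT2B differed by 3.20, against 1.38 as reported. Without replicate 2 of the antibody group, SAA1 differed by 0.57, against 0.37 as reported. With a pseudocount of 5 the gene past the threshold was MRVI1-AS1. The share of genes with an interval within 1.5-fold ran from 81.2% with a pseudocount of 0.1 to 99.6% with a pseudocount of 5, and from 90.0% to 95.6% when a library was left out. The list members past the threshold numbered 0 in all these settings. In MDA-MB-231 the count of 2 was 0 at a mean TPM of at least 5, 0 with its 4 libraries alone, and 1 to 4 when a library was left out. For the difference between lines, the count of 2 was 1 with a pseudocount of 5, 0 at a mean TPM of at least 5, 4 with small RNA genes kept, and 1 to 4 when a library was left out. With a library left out, H2O2 against IgG gave 3066 (without replicate 2 of IgG with H2O2) to 4711 genes, and anti-Hsp60N with H2O2 against IgG 3044 (without replicate 2 of the antibody group) to 4890. Of the alternative values of named genes, 2844 stayed, 38 lost and 6 gained the threshold. Another 145 moved by at least the SE of the difference as reported. Of the alternative list medians, 799 stayed and 52 moved by at least the spread between replicates. In the difference between lines, APOC1 also passed with a pseudocount of 0.1, and HOXD4 without the variance trend. The causes were not tested.

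With the replicate number as a block, the count for the antibody was 0 in HCT116 and 1 in MDA-MB-231, where HERC2P4 lost its call (limma adjusted p = 0.117). The deviations of same-numbered libraries of the compared HCT116 groups correlated at -0.10, so the numbers were not taken to pair the samples. A block with crossed numbers, added after the data were seen, also gave 0. Depth is unknown, and 2 libraries a group limit the precision: the median half-width of an interval was 0.12 above 100 TPM and 0.27 at 1 to 5 TPM. For a gene with an interval of that median width, smaller log2 differences could not be resolved even when it was taken alone. Genes with narrower intervals allowed smaller ones. Over all genes, larger ones also missed the threshold, such as that of CAMK2N1 (difference 0.35, interval 0.20 to 0.50, limma adjusted p = 0.504).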

Other observations

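Growth and adhesion programmes that were not described above were also close in the 2 H2O2 groups of HCT116. Of 18 targets of YAP and TEAD, 7 were higher and 0 lower without overlap, where 21.9% and 15.6% of all genes were, with a median of 0.06 (0.04 without replicate 1 of IgG with H2O2 or replicate 2 of the antibody group) and 0 past the test. CYR61, a matricellular protein, had 12.2 and 12.7 TPM under IgG with H2O2 and 13.6 and 14.5 TPM with anti-Hsp60N (difference 0.16, interval 0.01 to 0.31, limma adjusted p = 0.919), and its relative CTGF had 3.19 and 3.25 TPM against 3.3 and 3.54 TPM. Among 22 genes of the response to unfolded proteins in the endoplasmic reticulum, 0 passed. HSPA5, its central chaperone, had 800 and 822 TPM against 809 and 860 TPM, and HERPUD1, of the degradation machinery, had 82.8 and 83.4 TPM against 82.4 and 85.1 TPM. Of 11 metallothionein and zinc response genes, 8 were tested, 2 were higher and 3 lower without overlap, and 0 passed. Among the metallothioneins, which bind zinc, MT2A was at 4008 and 3737 TPM against 3708 and 3677 TPM and MT1E was at 1480 and 1381 TPM against 1378 and 1315 TPM. Both were lower with the antibody without overlap, by differences of -0.07 and -0.09 that did not pass. In autophagy, MAP1LC3B, the LC3 protein of autophagosomes, had 232 and 238 TPM against 230 and 248 TPM, and SQSTM1, the cargo receptor p62, had 540 and 535 TPM against 496 and 500 TPM (difference -0.11, interval -0.22 to 0.00, limma adjusted p = 0.919).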
